A study of Mus musculus with 6 samples.

Results

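The 10 genes described here are core parts of the NRF2 pathway, the main transcriptional response of cells to reactive and oxidising chemicals: Nfe2l2, Keap1, Gclc, Gclm, Srxn1, Txnrd1, Hmox1, Nqo1, Osgin1 and Sqstm1. They were taken by gene symbol from a table of 24421 genes, and all 10 were found and tested. RNA was sequenced from primary neural stem cells of the subventricular zone, the stem cell layer lining the lateral ventricles, of wild-type C57BL/6 mice at postnatal day 60. Of 6 libraries, 3 came from cells given 20 µM PluriSIn#2 for 3 days, which the series describes as an inhibitor of topoisomerase IIA, and 3 from cells given the solvent DMSO. All cultures were grown in EGF and FGF2 at 20 ng/ml, with the medium changed at 24 h. The sample titles give PluriSIn#2 for the 3 treated libraries, but for replicates 2 and 3 of these the treatment field names PluriSIn with another number. The labels do not say whether replicates were separate cultures or animals. A p-value here therefore reflects only how much these libraries vary, which may be technical variation.

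NRF2, the protein of Nfe2l2, is a transcription factor that KEAP1 binds and passes to a CUL3 ubiquitin ligase for destruction. When electrophiles or oxidants modify cysteines of KEAP1, NRF2 accumulates, pairs with small MAF proteins and binds antioxidant response elements near genes for glutathione synthesis, thiol repair, quinone reduction and haem breakdown. Much of this control acts on protein, and these libraries measure RNA only. In the brain the pathway is best known in astrocytes, which supply glutathione precursors to neurons.

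Of the 10 genes, 9 were higher and 1, Keap1, was lower in PluriSIn#2 at an adjusted p under 0.05. Among all 14417 genes tested, 41.7% were called higher and 40.9% lower, 82.6% in either direction, so a call alone sets no gene apart here. Sizes varied widely. Hmox1, Osgin1 and Srxn1 rose 7.90-fold, 6.93-fold and 5.11-fold, and Sqstm1, Gclm, Gclc and Nqo1 rose between 1.88-fold and 2.17-fold. Nfe2l2 rose 1.41-fold, Txnrd1 only 1.10-fold, and Keap1 fell to 0.872 of its DMSO level. A rise of at least 2-fold was called for 5 of the 10 genes, against 16.3% of all genes tested. The median log2 fold change was 0.99 over the 10 genes and 0.01 over all genes tested. In the 9 genes that rose, every treated library was above every DMSO library, as it was for 41.8% of all genes. In Keap1 every treated library was below every DMSO library, as for 40.9% of all genes.

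**Figure D1:**
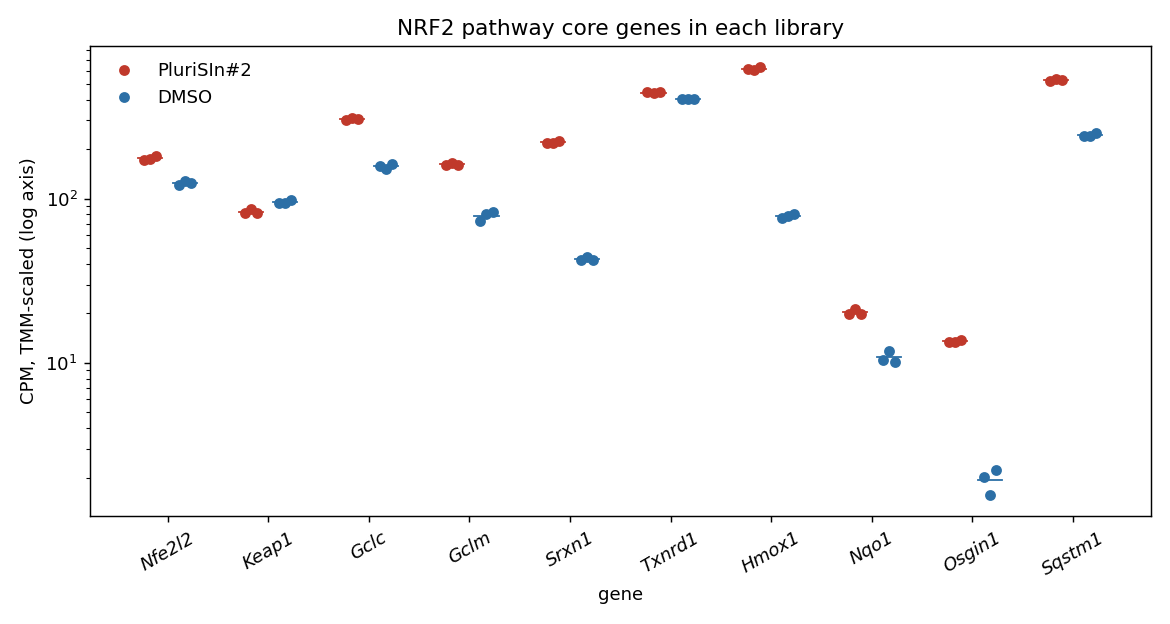
TMM-scaled CPM (log axis) of the 10 genes in each of the 3 PluriSIn#2 libraries (red, left) and 3 DMSO libraries (blue, right). Short lines are group means. The groups are separate for all 10 genes, widely for Hmox1, Srxn1 and Osgin1 and narrowly for Txnrd1 and Keap1.

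The 5 promoter stretches below are shown because they hold the letters of an antioxidant response element within the 250 bases before an annotated start. RefSeq promoters (GRCm38.p6, from 250 bases before to 50 bases after a start) were at hand for 8 of the genes, all but Hmox1 and Gclc. Both strands were searched for TGACNNNGC, the core of the element, and for TGANTCAGC, a form that also contains TGANTCA, the site of AP-1 factors. Capitals mark the match, and each sequence runs 5′ to 3′ on the strand of its gene, so that a match on the opposite strand appears reversed and complemented.
Srxn1, chr2:152105419-152105517, plus strand: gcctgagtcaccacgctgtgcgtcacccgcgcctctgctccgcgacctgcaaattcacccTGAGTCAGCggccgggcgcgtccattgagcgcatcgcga
Osgin1, chr8:119436988-119437086, plus strand: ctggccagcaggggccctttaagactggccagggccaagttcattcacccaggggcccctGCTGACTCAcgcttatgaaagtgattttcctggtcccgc
Gclm, chr3:122245363-122245461, plus strand: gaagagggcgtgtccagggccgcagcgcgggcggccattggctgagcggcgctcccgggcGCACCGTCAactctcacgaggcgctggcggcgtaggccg
Txnrd1, chr10:82859054-82859152, plus strand: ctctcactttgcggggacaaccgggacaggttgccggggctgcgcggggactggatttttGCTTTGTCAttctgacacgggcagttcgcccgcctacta
Nfe2l2, chr2:75704865-75704913, minus strand: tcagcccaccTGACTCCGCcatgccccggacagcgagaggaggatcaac

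The longer form TGANTCAGC was present in 2 of the 8 genes, Srxn1 and Osgin1, with the same letters TGAGTCAGC in both. It begins 45 bases before the start of Srxn1 on the strand of the gene and 99 bases before the start of Osgin1 on the opposite strand. Of the 27025 genes in the table, 1.365% held this form in at least 1 promoter (1.19% of all 32851 promoters). The core TGACNNNGC was present in 4 of the 8 genes, Nfe2l2, Gclm, Txnrd1 and Srxn1, against 14.0% of all genes in the table (12.4% of promoters), and its match in Srxn1 lies after the start and is not shown. Srxn1 holds a further TGANTCA, 102 bases before its start, and 8.97% of genes hold that shorter site (7.81% of promoters). Nqo1, Keap1 and Sqstm1 had neither TGACNNNGC nor TGANTCAGC in this window. The windows of Osgin1 and Txnrd1 belong to starts inside the gene bounds given below, for Txnrd1 to 1 of its 3 starts in the table. A match of letters does not show that a factor binds there.

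The regulator genes moved least apart from Txnrd1. Nfe2l2 spans 75675513 to 75704641 on the minus strand of chromosome 2 (gene positions here follow GENCODE on GRCm38, that is mm10). Levels are CPM, the reads of a gene scaled to the size of its library. It stood at 172, 174 and 180 CPM in the 3 PluriSIn#2 libraries and at 122, 128 and 124 CPM in the 3 DMSO libraries, so the groups did not overlap. The means were 175 ± 4.34 and 124 ± 3.33 CPM in PluriSIn#2 and DMSO (SD, n = 3 each), a log2 fold change of 0.50 (SE 0.032). Its adjusted p was 2.63e-25 by edgeR (quasi-likelihood test, Benjamini-Hochberg adjustment over all genes tested), the source of every adjusted p below. Genes with a larger log2 fold change made up 28.7% of those tested.

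Keap1, the repressor, was the gene that fell. On chromosome 9 from 21229730 to 21239361, it had 81.3, 86.3 and 81.4 CPM in PluriSIn#2, against 94.1, 94.0 and 97.5 CPM in DMSO. The difference was small beside the other members but exceeded the spread within either group, with means of 83.0 ± 2.88 and 95.2 ± 1.97 CPM in PluriSIn#2 and DMSO, a log2 fold change of -0.20 (SE 0.039) and an adjusted p of 4.89e-06. Its exons share 510 bases with an annotated antisense transcript, and no source used here states whether reads were counted by strand. The exons of Gclm likewise share 296 bases with a transcript of the opposite strand and 244 with a pseudogene.

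Within a library, reads of Nfe2l2 outnumbered those of Keap1 by 2.12, 2.01 and 2.22 to 1 in PluriSIn#2, against 1.29, 1.36 and 1.27 to 1 in DMSO. This ratio needs no scaling between libraries. Its log2 value was 0.69 higher in PluriSIn#2, with no overlap between groups. An exact permutation test (two-sided) gave p = 0.1, the smallest that 3 against 3 libraries allow, and each of the 4 ratios tested this way gave the same p of 0.1, also after adjustment over the 4.

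Gclc and Gclm encode the catalytic and modifier subunits of glutamate-cysteine ligase, the rate-limiting enzyme of glutathione synthesis, and both about doubled. Gclc, on chromosome 9 from 77754535 to 77794485, stood at 302, 307 and 303 CPM in PluriSIn#2, against 158, 152 and 162 CPM in DMSO. Means were 304 ± 3.12 and 157 ± 5.50 CPM in PluriSIn#2 and DMSO, and the log2 fold change was 0.95 (SE 0.029, adjusted p = 9.39e-49). Gclm lies on chromosome 3 from 122245557 to 122270732, and its promoter match is printed above. It stood at 160, 164 and 160 CPM in PluriSIn#2, against 73.2, 80.1 and 82.3 CPM in DMSO. The log2 fold change of Gclm was 1.04 (SE 0.037, adjusted p = 1.39e-43).

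The balance of the subunits hardly moved. Reads of Gclc per read of Gclm were 1.89, 1.87 and 1.89 in PluriSIn#2 and 2.16, 1.89 and 1.97 in DMSO. The log2 ratio differed by -0.09, and the lowest DMSO library nearly touched the treated ones, so the shift is of the size of the spread in DMSO (SD 0.10 on the log2 scale, n = 3).

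The thiol repair genes parted. Srxn1 encodes sulfiredoxin, which restores peroxiredoxins that peroxide has overoxidised. It lies on chromosome 2 from 152105516 to 152111376. Srxn1 stood at 216, 219 and 223 CPM in PluriSIn#2, against 42.3, 43.9 and 42.5 CPM in DMSO. All treated libraries were far above the controls, with a log2 fold change of 2.35 (SE 0.037, adjusted p = 1.91e-70), and 4.20% of tested genes had a larger one.

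Txnrd1, the cytosolic thioredoxin reductase, was by contrast already abundant and barely higher. On chromosome 10 from 82833951 to 82897712, it had 443, 440 and 442 CPM in PluriSIn#2, against 402, 404 and 401 CPM in DMSO. Replicates were so close (441 ± 1.496 and 402 ± 1.27 CPM in PluriSIn#2 and DMSO) that the small difference was called, at a log2 fold change of 0.13 (SE 0.023, adjusted p = 2.48e-07). Over all genes tested, 43.9% had a larger log2 fold change. With library totals as scaling, that of Txnrd1 was 0.20.

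The paralogues of Txnrd1 rose by more. The mitochondrial Txnrd2 averaged 21.1 ± 0.472 and 16.2 ± 0.195 CPM in PluriSIn#2 and DMSO (log2 fold change 0.38, adjusted p = 9.49e-06), and Txnrd3 averaged 17.1 ± 1.39 and 12.2 ± 0.571 CPM (0.48, adjusted p = 1.45e-06). Reads of Txnrd1 per read of Txnrd2 were 21.3, 20.3 and 21.1 in PluriSIn#2 and 24.6, 24.7 and 25.1 in DMSO. The log2 ratio was thus 0.25 below that in DMSO (difference -0.25) in an exact permutation test with p = 0.1.

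Hmox1, haem oxygenase 1, breaks haem into biliverdin, carbon monoxide and iron, and had the largest rise of the 10 genes. It lies on chromosome 8 from 75093621 to 75100589. Hmox1 stood at 614, 607 and 628 CPM in PluriSIn#2, against 76.0, 77.8 and 80.2 CPM in DMSO. The groups were far apart, at 616 ± 10.8 and 78.0 ± 2.08 CPM in PluriSIn#2 and DMSO (log2 fold change 2.98, SE 0.029, adjusted p = 1.62e-87), and 2.59% of tested genes had a larger log2 fold change.

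Hmox2, the paralogue that cells make constitutively, went the other way, with 25.6 ± 1.87 CPM in PluriSIn#2 and 30.04 ± 2.83 CPM in DMSO (log2 fold change -0.24, SE 0.069, adjusted p = 0.00129). Reads of Hmox1 per read of Hmox2 were 24.4, 25.4 and 22.8 in PluriSIn#2 and 2.65, 2.77 and 2.41 in DMSO, a difference of 3.21 in the log2 ratio (exact permutation p = 0.1).

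Macrophages also make much Hmox1, and their transcripts moved with it. Of 19 microglia and macrophage markers 17 were tested, of which 15 rose, P2ry12 was not called and Cd163 was lower, a call that ended without PluriSIn#2 replicate 1 or 2 or DMSO replicate 1, with PluriSIn#2 replicate 1 alone, with library totals as scaling, in DESeq2 and with FPKM. Their summed level was between 229 and 235 CPM in PluriSIn#2 libraries and between 11.5 and 12.7 CPM in DMSO libraries. Trem2 had no read in DMSO, and Lyz2, the most abundant, stood at 81.8 ± 1.77 and 1.26 ± 0.303 CPM in PluriSIn#2 and DMSO. Of all genes tested, 41.7% were called higher and 40.9% lower. Markers passed the filter on low counts mostly through their treated libraries, so the counts of markers favour rises. The part of these cells in the level of Hmox1 was not tested. Fewer or more cells of a type cannot be told apart from less or more RNA per cell in bulk libraries.

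Nqo1, a quinone reductase often used as the marker of NRF2 activity, was far less abundant. It lies on chromosome 8 from 107388225 to 107403206. Nqo1 stood at 19.7, 21.4 and 19.9 CPM in PluriSIn#2, against 10.48, 11.9 and 10.1 CPM in DMSO. Its log2 fold change was 0.91 (SE 0.089, adjusted p = 4.84e-16), close to those of Gclc and Gclm. Between 340 and 390 reads in treated libraries and between 187 and 211 in DMSO libraries stand behind it.

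Osgin1, an oxidative-stress-induced growth inhibitor, was the rarest of the 10 and had the next largest rise after Hmox1. On chromosome 8 from 119434124 to 119446256, it had 238, 244 and 236 reads in PluriSIn#2 libraries, against 36, 28 and 42 reads in DMSO libraries. That is 13.5 ± 0.244 and 1.94 ± 0.338 CPM in PluriSIn#2 and DMSO, with a log2 fold change of 2.79 (SE 0.144, adjusted p = 5.96e-32). Its standard error was the widest among the 10. On the log2(FPKM + 1) scale the log2 fold change of Osgin1 was 2.03, since the pseudocount of 1 is about as large as its DMSO level of 0.949 FPKM.

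Sqstm1 encodes p62, a receptor that delivers ubiquitinated cargo to autophagosomes and also binds KEAP1. It lies on the minus strand of chromosome 11 from 50199366 to 50210827. Sqstm1 stood at 519, 533 and 526 CPM in PluriSIn#2, against 239, 239 and 249 CPM in DMSO. The groups were widely separate, with a log2 fold change of 1.12 (SE 0.025, adjusted p = 5.56e-59). Its exons share 580 bases with Mrnip on the opposite strand, which had between 84 and 147 reads per library, against at least 4249 for Sqstm1, and was lower in PluriSIn#2 (log2 fold change -0.55).

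**Figure D2:**
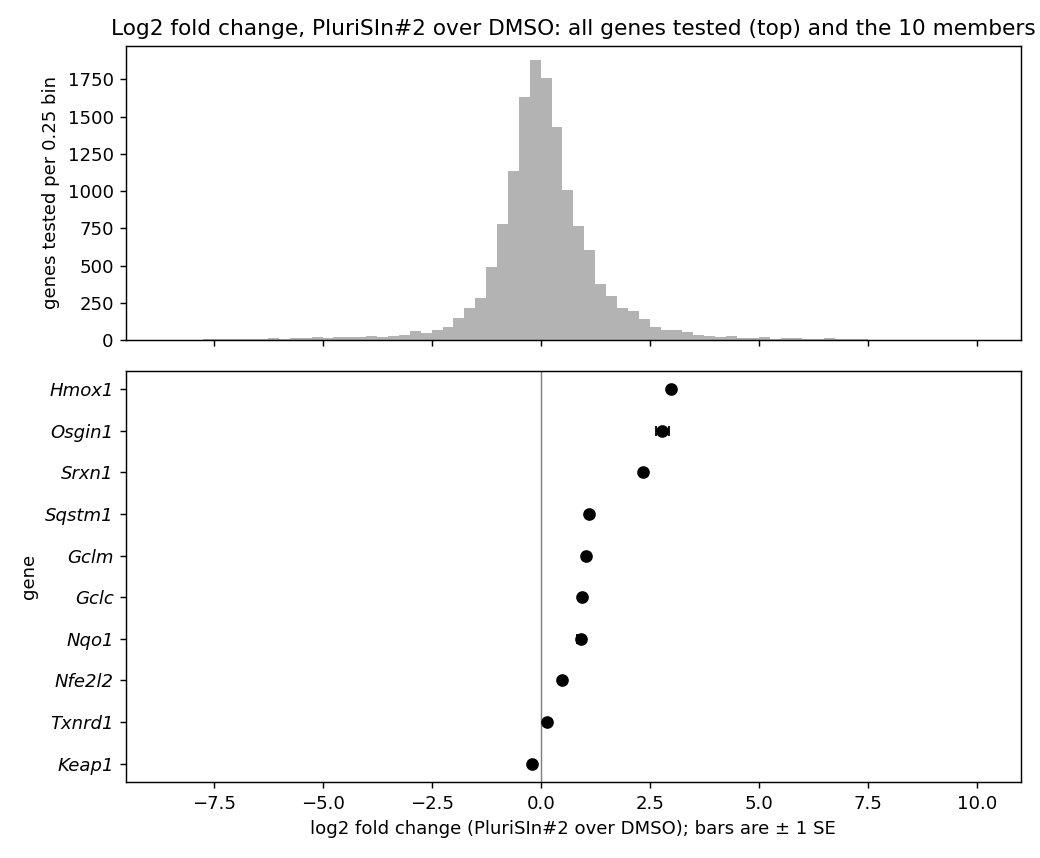
Log2 fold change of PluriSIn#2 over DMSO. The upper panel counts all 14417 genes tested in bins 0.25 wide, and the lower panel gives the 10 genes with bars of 1 SE. Hmox1 (2.98), Osgin1 (2.79) and Srxn1 (2.35) lie far out on the right flank of the distribution, and Txnrd1 (0.13) and Keap1 (-0.20) lie near its centre.

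Levels of different genes were compared with the authors' deposited FPKM, which divide by gene length. In PluriSIn#2 the order was led by Hmox1 at 393 ± 7.01 FPKM, then Sqstm1 at 260 ± 3.06, Txnrd1 at 122 ± 0.564 and Gclc at 89.0 ± 0.829 FPKM. Srxn1 (78.3 ± 1.24) and Gclm (78.1 ± 1.09) had overlapping ranges there, ahead of Nfe2l2 at 71.3 ± 1.75, Keap1 at 18.6 ± 0.630, Nqo1 at 13.2 ± 0.572 and Osgin1 at 6.93 ± 0.125 FPKM. In DMSO the order was led by Sqstm1 at 114 ± 2.72 and Txnrd1 at 106 ± 0.482 FPKM. Nfe2l2 (48.2 ± 1.33) and Hmox1 (47.4 ± 1.21) came next with overlapping ranges, followed by Gclc at 43.9 ± 1.47, Gclm at 36.3 ± 2.18, Keap1 at 20.4 ± 0.392, Srxn1 at 14.6 ± 0.310, Nqo1 at 6.67 ± 0.590 and Osgin1 at 0.949 ± 0.164 FPKM. All other neighbours in either order were separated by their ranges over 3 libraries. Hmox1 moved to the head of the list and Srxn1 passed Keap1 and Nfe2l2, while the other genes kept their order relative to one another except that Gclc and Gclm passed Nfe2l2.

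**Figure D3:**
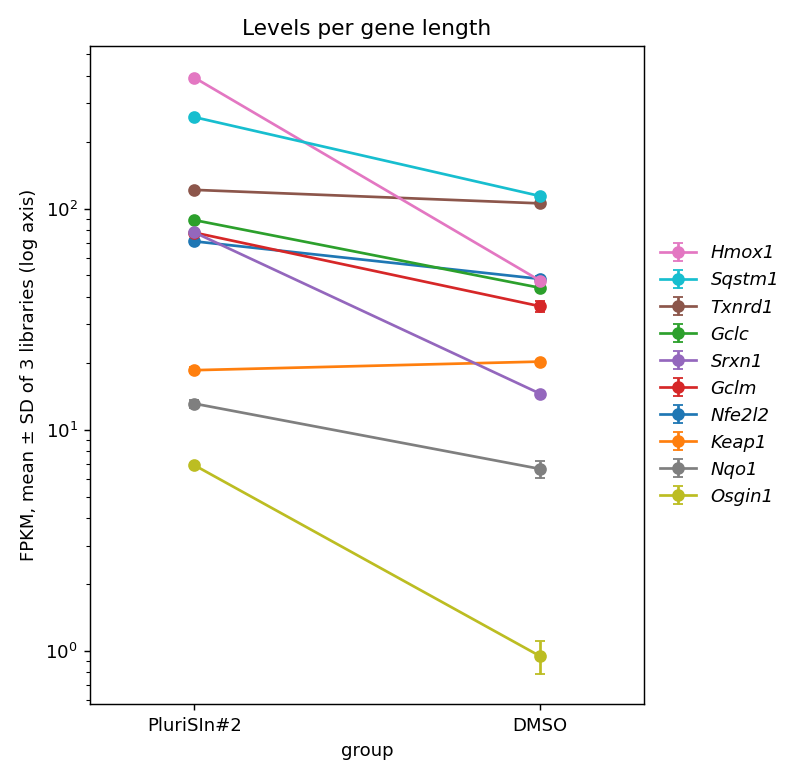
FPKM (log axis) of the 10 genes in PluriSIn#2 (left) and DMSO (right), as means with SD bars over 3 libraries. Hmox1 and Srxn1 cross other genes between the groups, whereas Txnrd1 and Keap1 run nearly level.

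Genes that partner or regulate NRF2 went both ways, as all genes tested did (41.7% higher and 40.9% lower). Of 25 listed, 24 were tested, 10 of them higher, 12 lower and 2 not called, with a median log2 fold change of -0.08 beside 0.01 over all genes tested. The most abundant and most raised was Cdkn1a, the cell-cycle inhibitor p21, which can shield NRF2 from KEAP1, at 1419 ± 2.66 and 344 ± 4.82 CPM in PluriSIn#2 and DMSO (log2 fold change 2.05, adjusted p = 5.89e-85). The nuclear receptor gene Rxra rose by 0.96 on the log2 scale. The largest falls were in Palb2, a repair gene whose product binds KEAP1 (log2 fold change -2.06), and Amer1 (-1.26). Some further members were chosen after their values were seen. The small MAF genes, whose products pair with NRF2, did not move together, with Mafk (0.78) and Mafg (0.29) higher and Maff (-1.24) lower. Bach1, whose product competes with NRF2 at haem oxygenase and other targets, was lower at 52.6 ± 0.595 and 80.9 ± 3.22 CPM in PluriSIn#2 and DMSO (log2 fold change -0.62, adjusted p = 7.01e-23). Cul3, the ligase scaffold, was called slightly higher (0.09, adjusted p = 0.0111) with overlapping groups.

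Other known NRF2 targets were mostly higher. In 3 lists holding 43 genes besides the 10 members, 38 were tested, of which 30 rose, 5 fell and 3 were not called. The shares over all genes tested were 41.7% higher and 40.9% lower. The median log2 fold change of the 38 was 0.85. At least 2-fold rises numbered 18 of the 38, beside 16.3% of all genes tested. Genes with very few DMSO reads entered the test through their treated libraries, so these counts lean to rises.

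Within these targets the groups differed. Among glutathione and thioredoxin genes, 12 of 14 tested rose, beside 41.7% of all genes tested. Gstm1, a glutathione transferase, was the most abundant and rose to 1711 ± 9.14 CPM in PluriSIn#2, against 210 ± 1.59 CPM in DMSO (log2 fold change 3.02), and Gsta4 rose by 1.92 on the log2 scale. The cystine carrier gene Slc7a11 (1.201) and the peroxiredoxin gene Prdx6 (1.46), chosen after their values were seen, rose too. The 2 that fell were Txn1, thioredoxin, at 663 ± 7.06 and 1099 ± 35.004 CPM in PluriSIn#2 and DMSO (log2 fold change -0.73), and Gsr, glutathione reductase (-0.67). These are the substrate of Txnrd1 and the reductase that recycles glutathione.

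Detoxification and iron genes rose in 16 of 18 tested, beside 41.7% of all genes tested. Fth1, the ferritin heavy chain that stores iron, rose to 3453 ± 31.9 CPM in PluriSIn#2, against 567 ± 5.96 CPM in DMSO (log2 fold change 2.61). The iron exporter gene Slc40a1, also made by macrophages, had the largest rise (4.65), to 16.8 ± 0.811 CPM in PluriSIn#2, against 0.663 ± 0.116 CPM in DMSO. The aldo-keto reductase gene Akr1b8 rose by 3.75 on the log2 scale. Ugdh, which makes UDP-glucuronate, fell (-1.29), and Pir was not called. Fth1 and Gstm1 have near-identical copies, and no source used here states how shared reads were counted.

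Enzymes that make NADPH, which thioredoxin and glutathione reductases consume, showed no common direction. Of 6 tested, Me1 (0.65) and Taldo1 (0.07) were higher, Idh1 (-0.80) and Tkt (-0.32) lower, and G6pdx and Pgd not called. Over all genes tested the shares were 41.7% higher and 40.9% lower. The call of Taldo1 (adjusted p = 0.0334) ended without a filter on low counts, in DESeq2, with PluriSIn#2 replicate 1 as the only treated library, and without PluriSIn#2 replicate 2 or 3 or DMSO replicate 1 or 2.

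Of the other targets, 35 were in the promoter table. The core TGACNNNGC was found in 11 of them, against 14.0% of all genes. Abcc4, Gsta3, Htatip2, Me1, Mgst1 and Prdx1 of these were called higher and Ugdh lower. G6pdx, Pgd and Pir were not called, and Abcc2 was not tested. TGANTCAGC was found in 5, against 1.365% of all genes: Gstp1, Htatip2, Me1, Pir and Prdx1. The log2 fold changes of these 5, in that order, were 0.44, 0.83, 0.65, 0.24 and 0.29, all below that of Srxn1 or Osgin1, and Pir was not called.

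Genes of general thiol and superoxide defence, including regulators, were listed apart from the NRF2 targets. Of 26 tested, 19 were higher, 3 lower and 4 not called, with a median log2 fold change of 0.47. Among all genes tested, 41.7% were higher and 40.9% lower. Txnip, an inhibitor of thioredoxin, had the largest rise, to 75.1 ± 2.12 CPM in PluriSIn#2, against 10.4 ± 0.961 CPM in DMSO (log2 fold change 2.85), followed by the extracellular superoxide dismutase gene Sod3 (1.81). The 3 lower genes were Prdx4 (-1.35), Msra (-0.57) and Gpx7 (-0.41), the last chosen after its value was seen. Prdx2, the most abundant, was not called at 372 ± 9.97 and 373 ± 8.83 CPM in PluriSIn#2 and DMSO. Its log2 fold change of -0.01 turned positive under 6 alternatives, and with library totals as scaling Prdx2 was called higher (0.06, adjusted p = 0.0162).

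Around Sqstm1, 14 of 20 selective autophagy genes rose and 3 fell, and 3 passed in neither direction (median log2 fold change 0.41). Of all genes tested, 41.7% rose and 40.9% fell. Tfeb, a regulator of lysosome and autophagy genes, rose by 1.24 and Map1lc3a, which encodes an LC3 protein that p62 binds, by 1.15 on the log2 scale. The most abundant, Wdfy3, fell (-0.41), as did Becn1 (-0.26) and Tollip (-0.22). Sqstm1 at 1.12 thus had a rise close to the largest ones of that list.

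Around Hmox1, 7 of the 17 genes of haem synthesis and handling rose, 7 fell and 3 passed in neither direction. These counts are near the shares of all genes tested, 41.7% higher and 40.9% lower. The median log2 fold change of the list was -0.03. Alas1, the first enzyme of haem synthesis, rose to 103 ± 3.23 CPM in PluriSIn#2, against 69.0 ± 1.31 CPM in DMSO (0.58), Hebp1 rose by 0.64 and the most abundant, Pgrmc1, by 0.51 on the log2 scale. The transporter genes Abcb6 (-1.24) and Abcg2 (-1.12) had the largest falls. No gene of this list rose 2-fold. The globin genes Hbb-bs and Hba-a1 had no read in any library, where a count of 0 allows up to 3 reads by counting error alone. How reads shared between similar globin genes were counted is not stated in any source used here.

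**Figure D4:**
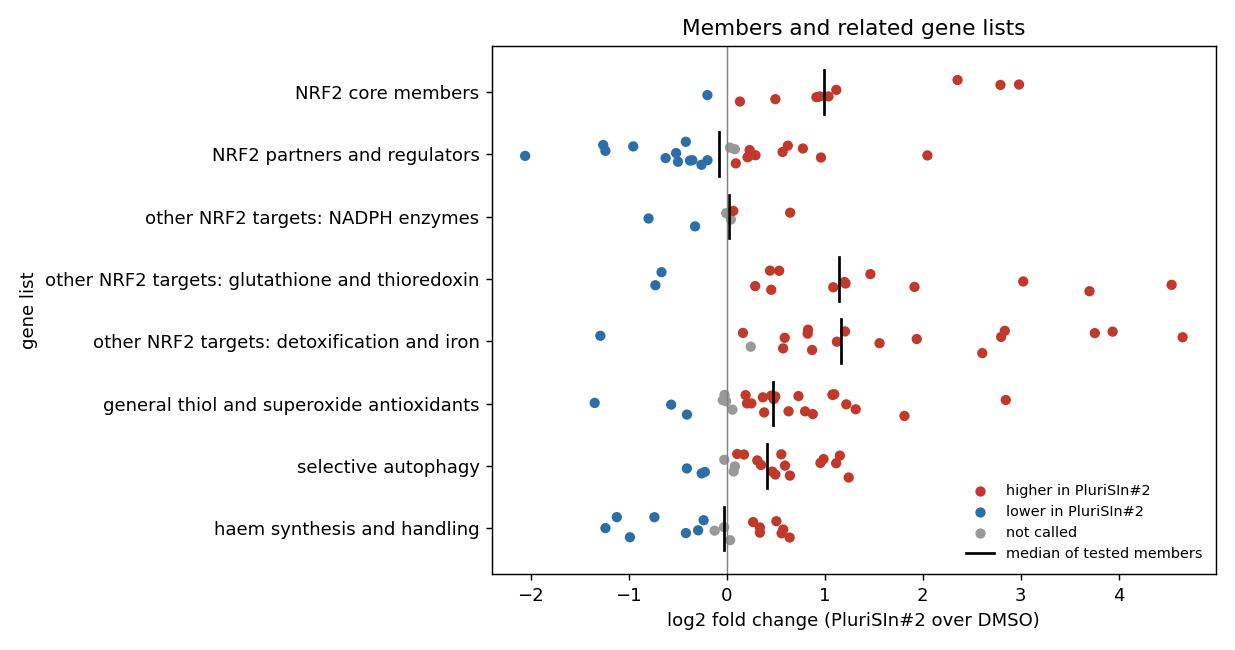
Log2 fold change (PluriSIn#2 over DMSO) of each tested gene in the NRF2 core and 7 related lists. Red points were called higher, blue lower and grey not called, and black bars are medians. The glutathione and detoxification targets lie mostly to the right, as the core genes do, while partners and haem genes lie on both sides.

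**Figure D5:**
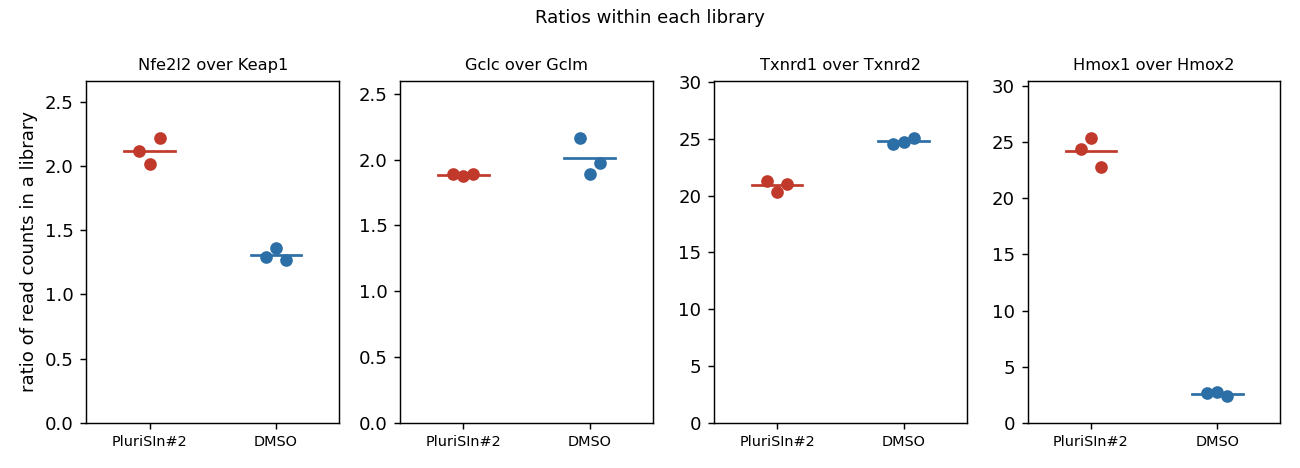
Ratios of read counts within each library for 4 gene pairs, PluriSIn#2 left and DMSO right, with lines at group means. Hmox1 over Hmox2 lies between 22.8 and 25.4 in treated and between 2.41 and 2.77 in DMSO libraries, and Gclc over Gclm is near 2 in both groups.

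Libraries held between 16670962 and 17827158 counts in PluriSIn#2 and between 18186070 and 19241869 in DMSO, and the lowest correlation of log2 CPM inside a group was 0.994, the highest across groups 0.880. Top2a, the gene of the inhibited enzyme and a marker of dividing cells, stood at 6.01 ± 1.29 CPM in PluriSIn#2 and 878 ± 21.2 CPM in DMSO. Among 13 neural stem cell and astroglial markers 5 were higher and 8 lower, beside 41.7% and 40.9% of all genes tested. None was without reads. Vim, the most abundant, stood at 3061 ± 30.1 and 2669 ± 30.5 CPM in PluriSIn#2 and DMSO. Others, chosen after their values were seen, moved further. The astrocyte filament gene Gfap rose to 299.6 ± 0.638 CPM in PluriSIn#2, against 42.0 ± 2.17 CPM in DMSO (log2 fold change 2.84), while the progenitor genes Nes (-1.44) and Hes5 (-2.33) fell. Summed levels of fibroblast and mural markers were between 220 and 225 CPM in PluriSIn#2 and between 23.7 and 24.6 CPM in DMSO. Col3a1 was the most abundant over all 6 libraries. Of 8 tested, 7 were higher, beside 41.7% of all genes tested, and Acta2 was not called. Acta2 (13.5 and 14.5 CPM in PluriSIn#2 and DMSO), chosen after its values were seen, made up most of the DMSO sum. Summed levels of endothelial markers were between 33.4 and 36.4 CPM in PluriSIn#2 and between 6.08 and 6.75 CPM in DMSO. Cdh5 was the most abundant of these over all 6 libraries. Ependymal and choroid plexus markers summed to between 645 and 664 CPM in PluriSIn#2 and between 38.8 and 40.5 CPM in DMSO. Ttr (501 and 1.89 CPM in PluriSIn#2 and DMSO) made up most of the treated sum. Foxj1 (144 and 34.1 CPM), chosen after its values were seen, made up most of the DMSO sum. Oligodendrocyte markers summed to between 2369 and 2438 CPM in PluriSIn#2 and between 2882 and 3016 CPM in DMSO. All 7 oligodendrocyte lineage markers tested were lower, beside 40.9% of all genes tested. Olig1 carried most of the oligodendrocyte sum and moved least (log2 fold change -0.07, with overlapping groups). Its call ended with FPKM, and its direction turned with library totals. Sox10 (-4.77) and Pdgfra (-3.54), chosen after their values were seen, fell most. Neuronal markers, led by Tubb3, summed to between 72.8 and 78.8 CPM in PluriSIn#2 and between 59.3 and 64.9 CPM in DMSO. The part of these cell types in the changes of the 10 genes was not tested.

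The authors' deposited table gives log2 fold changes that differed little from those above: 2.98 for Hmox1, 2.79 for Osgin1, 2.35 for Srxn1, 1.11 for Sqstm1, 1.03 for Gclm, 0.94 for Gclc, 0.91 for Nqo1, 0.49 for Nfe2l2, 0.13 for Txnrd1 and -0.20 for Keap1.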

How the data were processed

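RNA-seq of 3 PluriSIn#2 and 3 DMSO libraries was analysed, grouped by sample title. STAR, HTSeq and DESeq with mm10 are named in the submitters' processing notes. No source used here states versions, annotation, strand or filters. The authors' deposited count table holds whole-number read counts per gene symbol, not normalized. The authors' deposited FPKM are scaled by them for length and depth, and their deposited log2 fold changes and p-values come from their own test. The FPKM table held 25 gene names turned into dates, which were left out.

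Counts were tested in R 4.3.3 with edgeR 4.0.16: filterByExpr, TMM, glmQLFit and glmQLFTest on the group, two-sided, Benjamini-Hochberg over 14417 genes, threshold 0.05. Standard errors are the log2 fold change over the root of F. CPM use TMM-scaled totals, and values are mean ± SD. Intervals and floors cover counting error only. Exact permutation tests served ratios. Alternatives used DESeq2 1.42.0, and limma 3.58.1 on log2(FPKM + 1). On a simulated PluriSIn#2 against DMSO comparison of 13840 genes, edgeR recovered 58% of 1.2-fold and 98% of 2-fold changes. Only 50 genes were changed at each fold there, whereas 82.6% of genes tested were called in these data. The recovery rates therefore need not hold for these data.

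The members and lists were chosen with earlier results of these data known. From each related list the text names the most abundant gene and the 2 largest called rises and falls with a mean of at least 5 CPM, from each marker list the most abundant gene (1 such gene is not reported here), and also Txnrd2, Txnrd3, Hmox2 and Top2a. Flvcr1 and Flvcr2 were matched by older symbols. Positions come from GENCODE M21, promoters from RefSeq.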

Additional observations from a re-analysis of the deposited data

How the results depend on the processing

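Each of the 10 genes kept its direction and its call under the 14 alternatives run: library totals or DESeq2 size factors as scaling, no filter or a filter at 1 CPM, DESeq2, limma on FPKM, a replicate block, PluriSIn#2 replicate 1 alone, and each library left out. With that 1 treated library the spread comes from DMSO libraries only, and the lone library is assumed to vary like them. Osgin1 ranged most, with log2 fold changes between 2.03 and 2.90, and Keap1 between -0.23 and -0.12 (highest adjusted p = 0.0119). The 4 ratios also kept their direction with any library left out and with FPKM. Same-numbered libraries did not deviate together (correlations between -0.0025 and 0.0293), and with the replicate number as a block 9 members stayed higher and 1 lower, with 5984 genes higher and 5867 lower in all. With a 2-fold minimum the higher and lower counts became 2353 and 1687 for all genes, 5 and 0 for the 10 members, and 1 and 3 for NRF2 partners. They became 0 and 0 for NADPH enzymes, 10 higher for detoxification genes, 0 lower for glutathione genes, 7 and 1 for general antioxidants, 3 and 0 for autophagy and 0 and 2 for haem genes, which follows from the stricter rule. The count of higher NADPH enzymes, 2, was 1 with no filter, in DESeq2 and with PluriSIn#2 replicate 1 alone, and between 1 and 2 with a library left out, since Taldo1 lost its call. The log2 fold change of Prdx2 turned positive with library totals (0.0632, adjusted p = 0.0162, a call), the 1 CPM filter (0.000775), FPKM (0.0620) and PluriSIn#2 replicate 1 alone (0.0226), and lay between -0.0244 and 0.0115 with a library left out, positive without PluriSIn#2 replicate 3 (0.0115) or DMSO replicate 3 (0.00816). That of Olig1 turned to 0.000209 with library totals, and that of Tubb3 to -0.110 with PluriSIn#2 replicate 1 alone. The cause was not tested. Library totals moved the median of all genes to 0.08. Depth limits mainly Osgin1 in DMSO.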
